A study of Mus musculus with 12 samples.

Results

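The 6 livers of Mlkl-/- mice in this series carry a number after the diet in their titles, and the livers titled with 27 or 29 are compared here with those titled with 23 or 25. The members were chosen by genotype and by that number alone: 3 of the 6 Mlkl-/- libraries have the higher codes (HFD29 animal 1219, ND27 animals 1153 and 1154) and 3 have the lower codes (HFD25 animals 910 and 915, ND23 animal 859), of 12 libraries in all. What the code stands for is not stated in any label. Codes 29 and 25 stand on high-fat diet (HFD) libraries and codes 27 and 23 on normal chow (ND) libraries, so a code difference can be read only within a diet or with diet as a term. The comparison shows how far livers of 1 genotype differ between sets of animals with different title codes and animal numbers.

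All 12 animals came from a study of MLKL in diet-induced obesity and fatty liver, in which wild-type and Mlkl-/- mice were put on the diets at 8 to 9 weeks of age. HFD held 36% fat and 59% of its energy as lipid. The labels give 25 weeks of diet for every library, whereas the series text gives 16 to 25 weeks, so the time on diet of a code cannot be read from the labels. Livers came from fed animals picked by their organ weights, and their RNA was read at the 3' ends of polyadenylated transcripts. The wild-type livers serve here as a second pair of code levels, with HFD29 animals 1229 and 1231 and ND27 animal 1142 at the higher codes, and HFD25 animal 904 and ND23 animals 875 and 876 at the lower. Each library is 1 animal number, and nothing else about litter, cage or day is given, so p-values measure the spread between these animals.

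Mlkl itself was counted 34 times in the HFD29 library and 15 and 20 times in the ND27 libraries, against 16 and 9 times in the HFD25 libraries and 16 times in the ND23 library, all below the 72 to 252 counts of the wild-type libraries. The part of the gene that is deleted is not given, and 3' reads outside it would check nothing. Library totals of the Mlkl-/- livers ran from 20721493 to 26535219 counts. Every pair of libraries within a genotype and diet differed beyond counting error (chi-square over its degrees of freedom, 19.4 to 137), so none was treated as a copy. Albumin (Alb) and the other secreted hepatocyte products on a list of 20 genes summed to 148815 to 202938 CPM, counts scaled by library total with TMM factors, in the Mlkl-/- libraries, as in hepatocyte tissue. Y-linked Ddx3y, Kdm5d, Eif2s3y and Uty were counted in every library, and Xist had 20 counts at most.

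One library property follows the codes on ND and not on HFD. At 8 loci, 6 annotated small RNAs, the antisense gene Gm15564 and Lars2, the mitochondrial leucyl-tRNA synthetase gene, the summed level was 5536 raw CPM in the HFD29 library and 490 and 656 in the ND27 libraries, against 6964 and 3484 in the HFD25 libraries and 9239 in the ND23 library. All 3 HFD livers were therefore high, and on ND the higher codes were low and the lower code high. The locus Mir6236 gave 636 CPM in the HFD29 library and 47.3 and 57.4 CPM in the ND27 libraries, against 757 and 468 CPM in the HFD25 libraries and 1170.0 CPM in the ND23 library. The mature miRNA annotated there (RefSeq, GRCm38.p6, chr9:110281353-110281371, plus strand) is shown because this locus marks the division, with its seed, bases 2 to 8, in capitals.
mmu-miR-6236: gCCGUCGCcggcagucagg
Reads of a polyA-primed library at this locus need not come from the mature miRNA, and none of the 8 loci was called for the code, with log2 differences of -2.21 to -1.86.

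Liver tissue is mostly hepatocytes, but its RNA also holds that of Kupffer cells, the resident macrophages that line the sinusoids, of sinusoidal endothelial cells and of stellate cells. Kupffer cells take up debris, bacteria and lipoproteins from portal blood and carry the surface receptor F4/80 (Adgre1). The sinusoidal endothelium scavenges with the stabilin receptors and makes clotting factor VIII. Stearoyl-CoA desaturases put the double bond into saturated fatty acids, and Scd1 is the main hepatocyte form. Hepatocytes also run a circadian clock, in which CLOCK and BMAL1 (Arntl) drive the Per, Cry and Dbp genes.

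With diet as a term, 24 of 17676 genes were called for the code (0.136% of those tested), at an adjusted p under 0.05 from edgeR's quasi-likelihood test with Benjamini-Hochberg adjustment. Of these, 20 were higher (0.113%) and 4 lower (0.0226%) at codes 27 and 29. The genes that rose include Adgre1 and Cd5l of the Kupffer cell list, the factor VIII gene F8 and the 3 desaturases Scd2, Scd3 and Scd4, and those that fell include the transcription factor Cebpb. At an unadjusted p under 0.05 stood 3507 genes, or 19.8% of those tested. The median log2 difference over all tested genes was 0.0032, and log2 differences below are codes 27 and 29 minus codes 23 and 25, with their standard errors.

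Adgre1 (mm10, chr17:57358691-57483527) stood at 12.4 CPM in the HFD29 library and 15.4 and 15.6 CPM in the ND27 libraries, against 4.10 and 4.18 CPM in the HFD25 libraries and 3.93 CPM in the ND23 library. The 2 code levels did not overlap, and the 3 lower-code livers lay within 0.3 CPM of each other. The naming rule takes only genes without overlap within each diet, which held for 41% of all tested genes. The mean was 14.5 ± 1.78 CPM at the higher codes and 4.07 ± 0.130 CPM at the lower codes (SD, n = 3 each), a log2 difference of 1.78 ± 0.18 (edgeR adjusted p = 0.0138). Cd5l, a protein secreted by tissue macrophages that binds lipids and IgM, stood at 71.1 CPM in HFD29 against 35.3 and 28.3 CPM in HFD25, and 71.6 and 86.6 CPM in ND27 against 36.6 CPM in ND23. It rose by 1.14 ± 0.15 (edgeR adjusted p = 0.0360), again with no overlap on either diet. F8, the gene of factor VIII, reached 10.6 (HFD29), 25.0 and 24.1 CPM (ND27) at the higher codes, against 4.44 and 4.66 (HFD25) and 5.89 CPM (ND23) at the lower codes. It rose by 1.64 ± 0.21 (edgeR adjusted p = 0.0360), and its HFD29 library lay between the ND27 libraries and the lower-code ones.

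Among the called genes that the naming rule picks for this comparison, the largest log2 difference was that of Apol7d (chr1:71652837-71662843, plus strand), which GENCODE annotates as an antisense gene. It stood at 49.7 CPM in the HFD29 library and 58.4 and 64.4 CPM in the ND27 libraries, against 12.1 and 13.1 CPM in the HFD25 libraries and 8.00 CPM in the ND23 library, a difference of 2.44 ± 0.22 (edgeR adjusted p = 0.0138). The gene overlaps Fn1, the fibronectin gene, on the opposite strand, and no source used here gives the strand setting of the counting. Fn1 averaged 1184 CPM and had a log2 difference of 0.52 that did not pass (adjusted p = 0.170). In the contrast of HFD29 with HFD25, which rests on 1 HFD29 library and takes its spread from all 6 Mlkl-/- libraries, Apol7d stood at 1.98.

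The other named genes that rose have varied roles. Lnpep, the insulin-regulated aminopeptidase that travels with the GLUT4 glucose transporter, stood at 14.7 CPM in the HFD29 library and 19.1 and 24.3 CPM in the ND27 libraries, against 5.92 and 5.62 CPM in the HFD25 libraries and 4.47 CPM in the ND23 library, and rose by 1.80 ± 0.24 (edgeR adjusted p = 0.0360). Hipk2, a nuclear kinase that acts on p53, stood at 23.04 (HFD29), 24.5 and 27.5 CPM (ND27) at the higher codes, against 8.54 and 10.3 (HFD25) and 7.75 CPM (ND23) at the lower codes, and rose by 1.51 ± 0.17 (edgeR adjusted p = 0.0219). Neither gene overlapped between the code levels. Kif13b, a kinesin motor, stood at 27.4 CPM in HFD29 against 12.8 and 16.0 CPM in HFD25, and 29.5 and 29.01 CPM in ND27 against 11.3 CPM in ND23, and Slc43a2, a transporter of neutral amino acids, at 9.27 CPM in HFD29 against 3.86 and 3.94 CPM in HFD25, and 10.2 and 11.3 CPM in ND27 against 4.47 CPM in ND23. They rose by 1.14 ± 0.16 and 1.26 ± 0.18 (edgeR adjusted p = 0.0475 and 0.0473). Kctd12, an auxiliary subunit of GABA-B receptors, rose by 1.21 ± 0.16, from a gene that overlaps the called lincRNA Gm26778 on the opposite strand, so their reads cannot be told apart without strand. Utp14b, a retrotransposed copy of a ribosome biogenesis gene, rose by 1.54 ± 0.19 and lies within Acsl3 on the same strand (Acsl3 had 0.72, adjusted p = 0.116). Klf12, a zinc finger repressor, rose by 1.498 ± 0.21 from low levels, with 6.92 CPM in HFD29 against 2.81 and 2.59 CPM in HFD25, and 7.49 and 7.62 CPM in ND27 against 2.40 CPM in ND23.

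3 of the 4 stearoyl-CoA desaturase genes, which lie side by side on chromosome 19, rose together. Scd2 (chr19:44293674-44306864) stood at 252 CPM in the HFD29 library and 112 and 92.8 CPM in the ND27 libraries, against 99.1 and 82.8 CPM in the HFD25 libraries and 30.9 CPM in the ND23 library. Scd3 (chr19:44203269-44244016) stood at 223 (HFD29), 102 and 83.2 CPM (ND27) at the higher codes, against 86.2 and 66.4 (HFD25) and 26.0 CPM (ND23) at the lower codes, and Scd4 (chr19:44333092-44346743) at 101 CPM in HFD29 against 37.6 and 30.3 CPM in HFD25, and 43.4 and 31.4 CPM in ND27 against 10.0 CPM in ND23. The log2 differences were 1.60 ± 0.16 for Scd2, 1.69 ± 0.17 for Scd3 and 1.73 ± 0.18 for Scd4 (edgeR adjusted p = 0.0138, 0.0138 and 0.0159). Within each diet the code levels did not overlap, which the naming rule requires and 20.4% of all tested genes showed in the higher direction. The ND27 livers reached about the level of the HFD25 livers: these 3 genes rose with HFD too, by 1.44 ± 0.16, 1.43 ± 0.17 and 1.61 ± 0.18 (HFD minus ND; edgeR adjusted p = 0.0210, 0.0255 and 0.0210). Scd1, far more abundant, stood at 11884 (HFD29), 5045 and 3958 CPM (ND27) at the higher codes, against 8736 and 6205 (HFD25) and 3155 CPM (ND23) at the lower codes, and did not pass, at 0.59 ± 0.22 (adjusted p = 0.197). Between the longest annotated transcripts of these genes, the longest identical stretches were 95 to 185 bases. Within the last 500 bases of those transcripts, where 3' reads are expected, none was longer than 14 bases. Whether these genes share reads was not tested.

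**Figure D1:**
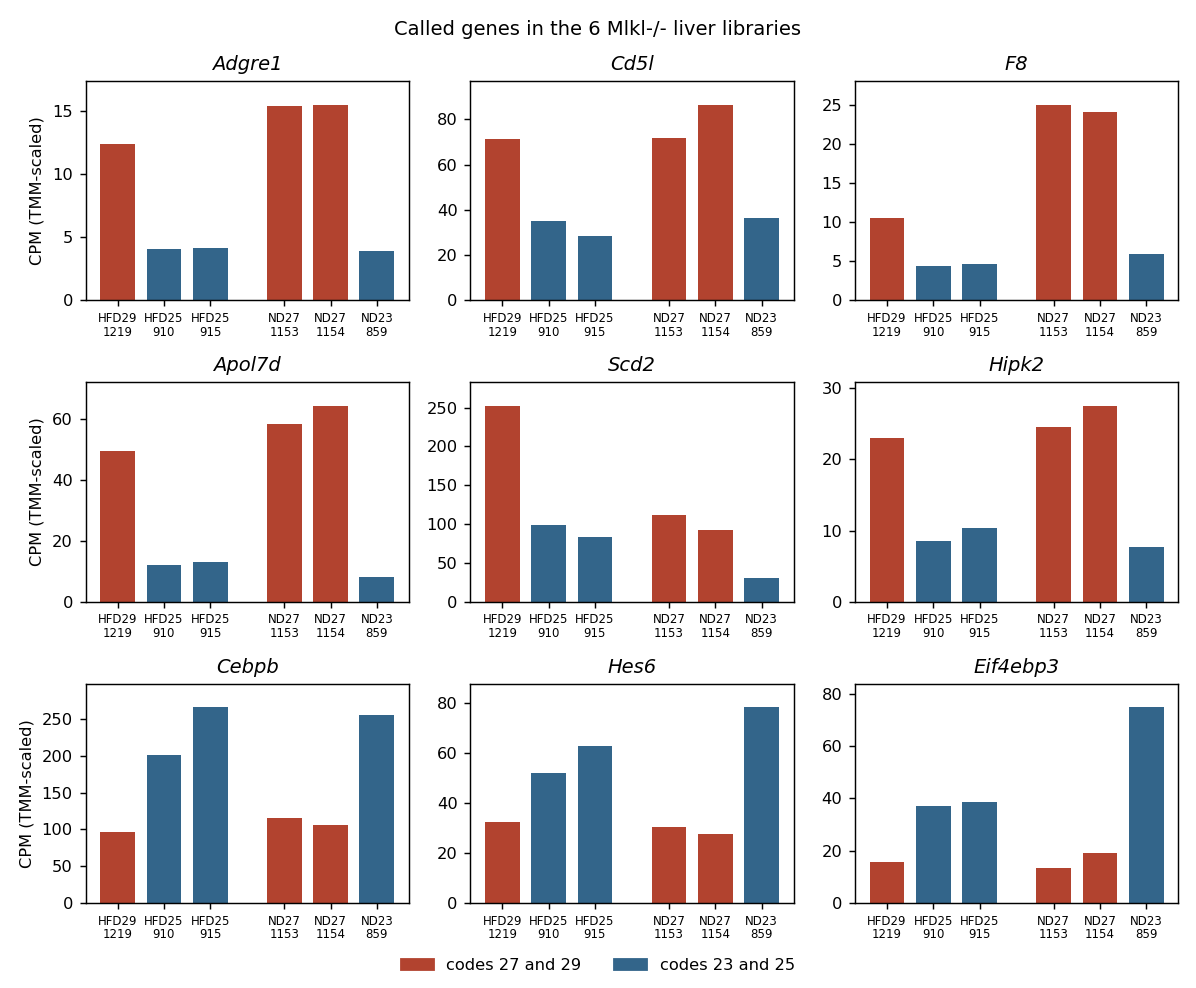
TMM-scaled CPM of 9 called genes in each of the 6 Mlkl-/- libraries, 1 bar per animal, with the HFD libraries left of the ND libraries and codes 27 and 29 (red) left of codes 23 and 25 (blue) within a diet. Adgre1 stands at 12.4 to 15.6 CPM in the red libraries and 3.93 to 4.18 CPM in the blue ones, whereas Scd2 moves with both code and diet.

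4 genes fell. Cebpb, a leucine zipper transcription factor of the acute phase and of gluconeogenesis (chr2:167688915-167690418), stood at 96.7 CPM in the HFD29 library and 115 and 106 CPM in the ND27 libraries, against 201 and 266 CPM in the HFD25 libraries and 255 CPM in the ND23 library, a log2 difference of -1.23 ± 0.15 (edgeR adjusted p = 0.0346). Its neighbour Tmem189, the desaturase of plasmalogen synthesis, overlaps it on the opposite strand and had 63.5 CPM in HFD29 against 103 and 103 CPM in HFD25, and 45.5 and 45.4 CPM in ND27 against 103 CPM in ND23, which did not pass (-0.94 ± 0.14, adjusted p = 0.0542). Eif4ebp3, which holds back cap-dependent translation by binding eIF4E, stood at 15.5 CPM in HFD29 against 37.2 and 38.5 CPM in HFD25, and 13.5 and 19.2 CPM in ND27 against 74.9 CPM in ND23, and fell by 1.75 on the log2 scale (SE 0.23, edgeR adjusted p = 0.0473). The ND23 library was about 2-fold above the HFD25 libraries in this gene. Hes6, a relative of the Notch effector Hes1, stood at 32.6 (HFD29), 30.3 and 27.4 CPM (ND27) at the higher codes, against 52.0 and 62.8 (HFD25) and 78.4 CPM (ND23) at the lower codes, and fell by 1.13 on the log2 scale (adjusted p = 0.0498). Tedc2, of the delta and epsilon tubulin complex, stood at 50.6 CPM in HFD29 against 139 and 135 CPM in HFD25, and 81.6 and 83.3 CPM in ND27 against 154 CPM in ND23, and fell by 1.17 (adjusted p = 0.0387). It overlaps the antisense gene BC028777, which did not pass. In wild-type livers, split the same way, Eif4ebp3 had -1.47 ± 0.47 and Cebpb -0.49 ± 0.23. Tedc2 had -0.42 ± 0.43 there and Hes6 0.36 ± 0.35. None of these 4 genes was called in wild-type livers or for the difference between the genotypes.

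Lower-side genes that came next by unadjusted p, without overlap within a diet, did not pass. They were Cyp2d12 (-0.89 ± 0.13), the nuclear receptor of mitochondrial genes Esrra (-0.99 ± 0.15), Marveld1 (-1.30 ± 0.20), Mcrip2 (-0.88 ± 0.14), the caffeine-oxidising P450 gene Cyp1a2 (-1.02 ± 0.17), Lims2 (-1.02 ± 0.17) and the urinary protein gene Mup4 (-0.90 ± 0.16), with adjusted p of 0.0542 to 0.0815. Cyp1a2 stood at 197 CPM in HFD29 against 355 and 501 CPM in HFD25, and 210.0 and 204 CPM in ND27 against 396 CPM in ND23, and Esrra at 26.7 CPM in HFD29 against 41.6 and 46.2 CPM in HFD25, and 20.5 and 21.3 CPM in ND27 against 50.4 CPM in ND23. Outside the naming rule, and chosen after their values were seen, the called genes Fam129a (1.89 ± 0.25) and Slc6a6, the taurine transporter (0.90 ± 0.13), rose as well. The other 3 called genes carry predicted names, Gm25745, 4930513N10Rik and Gm12431. Gm12431 was listed at 0 in 4 libraries and was counted only in the 2 ND27 ones.

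The number of calls rested on single animals. It was 2 without ND23 animal 859, 5 without ND27 animal 1153, 0 without ND27 animal 1154 (2050 genes at an unadjusted p under 0.05 by edgeR), 29 without HFD25 animal 910, 111 without HFD25 animal 915 and 69 without HFD29 animal 1219. Of the 16 called genes named by the rule for this comparison, 1, 4, 0, 9, 16 and 10 kept their call in those fits, in the same order, and each kept its direction. DESeq2 called 627 genes (378 higher and 249 lower) and limma-voom 17.

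Over 10860 genes with a mean of at least 5 CPM, the code given diet took a median of 26.9% of a gene's variance over the 6 livers and diet given code 14.9%, with 36.3% residual. The code share was the larger in 6299 genes, or 58.0%. The livers did not group by code alone. The closest pair was the ND27 animals 1153 and 1154, at a root mean square log2 distance of 0.923 over the 500 most variable genes. The HFD29 library lay 1.25 from HFD25 animal 910 and 1.44 from HFD25 animal 915, both nearer than the 2 HFD25 libraries lay to each other (1.71). The ND23 library was nearest to HFD25 animal 910 (1.53), not to an ND27 library (1.58 and 1.72). The first principal component of those genes held 43.2% of their variance and set the ND27 livers (-18.8 and -22.9) apart from the other 4 (2.71 to 19.8).

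The code difference was also taken within each diet, in 1 fit of the 6 libraries that shares their spread. On ND, where code 23 has 1 library, 63 genes of 18695 passed (0.337%), 35 of them higher (0.187%) and 28 lower (0.15%), and on HFD, where code 29 has 1 library, 2 passed, both higher (0.0107%), with the lone library assumed to vary like the others. They were Apol7d and, outside the naming rule, Serpina3b, a serpin of the antichymotrypsin family. Serpina3b had 417 counts in HFD29 animal 1219 and 1 to 4 counts in the other 5 livers, so its call describes 1 animal. Over the 10860 genes the ND and HFD differences had a Spearman correlation of 0.417 and the same sign in 67.0%. The genes share gene-wise technical properties, so this is a description with no test. Of 487 genes that differed by more than 1 on the log2 scale on ND, 365 (74.9%) had the same sign on HFD, with a median HFD difference of 0.43 for the 282 higher and -0.14 for the 205 lower ones. In the wild-type livers, split the same way, the correlation of the ND and HFD differences was 0.0674. On ND the code level coincides with the 8-locus level, and the 2 cannot be told apart there. As a term in any fit, this level was entered only as high or low, with high meaning above 1500 raw CPM. With that level as a term the code contrast is that of HFD29 with HFD25, and 2 genes were called.

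**Figure D2:**
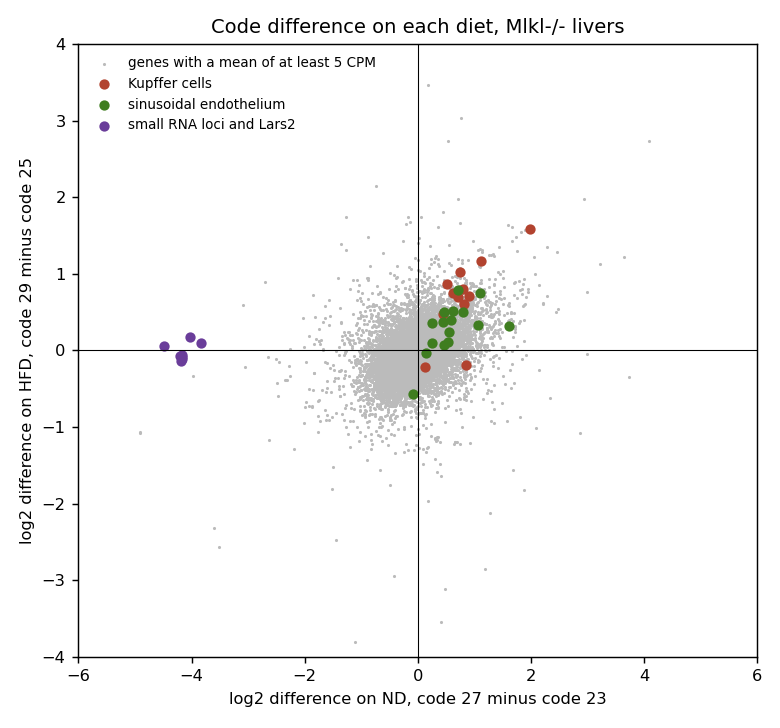
Log2 code difference of each gene with a mean of at least 5 CPM in Mlkl-/- livers, on ND (horizontal, code 27 minus code 23) and on HFD (vertical, code 29 minus code 25), with 3 genes outside the axes. Most Kupffer cell genes lie in the upper right, higher at the higher codes on both diets. The 8 loci of small RNAs, Gm15564 and Lars2 lie near -4 on ND and near 0 on HFD.

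Among the lists with at least 5 tested genes, that of Kupffer cells had the highest median difference with the code. Of 16 genes, 2 rose and 0 fell, where 0.113% of all tested genes rose. No overlap within either diet, in the higher direction, was seen for 13 of 16 (20.4% of all tested genes), and the median log2 difference was 0.71. It was 0.73 on HFD and 0.80 on ND. The summed level was 473 CPM in the HFD29 library and 498 and 523 CPM in the ND27 libraries, against 302 and 272 CPM in the HFD25 libraries and 303 CPM in the ND23 library. The groups did not overlap. Besides Adgre1 and Cd5l, which passed, the next members by p were chosen here after their values were seen. Clec4f, the lectin found on Kupffer cells alone among mouse macrophages, stood at 66.1 CPM in HFD29 against 40.2 and 36.0 CPM in HFD25, and 66.8 and 75.8 CPM in ND27 against 41.1 CPM in ND23, and had a difference of 0.80 ± 0.13 (adjusted p = 0.0782). Csf1r, the receptor for the growth factor that macrophages need, stood at 31.2 CPM in HFD29 against 19.6 and 18.6 CPM in HFD25, and 34.0 and 36.3 CPM in ND27 against 18.8 CPM in ND23, a difference of 0.81 ± 0.13 (adjusted p = 0.0798). The iron exporter gene Slc40a1 (0.69), the complement genes C1qa (0.46), C1qb (0.71) and C1qc (0.71), and the scavenger receptor Marco (0.88) lay on the same side. Fcna (-0.04), Xcr1 (-0.38) and the haemoglobin receptor Cd163 (0.34) overlapped. In whole tissue, more cells of a type and more RNA per cell cannot be told apart.

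Lists of other non-parenchymal cells had no member called. In sinusoidal endothelium 10 of 18 genes were higher without overlap (55.6%, beside 20.4% of all tested genes) and 0 lower (beside 20.6%), with a median of 0.40. Ptprb, the endothelial phosphatase that acts on the Tie2 receptor, stood at 41.2 CPM in HFD29 against 27.05 and 21.96 CPM in HFD25, and 67.2 and 69.5 CPM in ND27 against 31.9 CPM in ND23 (0.93 ± 0.15, adjusted p = 0.0791), and the lectin Clec4g at 24.3 CPM in HFD29 against 25.0 and 21.4 CPM in HFD25, and 33.6 and 33.5 CPM in ND27 against 24.2 CPM in ND23 (0.27 ± 0.15, adjusted p = 0.352). The summed level of the list was 262 CPM in HFD29 against 210 and 209 CPM in HFD25, and 400 and 390 CPM in ND27 against 261 CPM in ND23, so that the HFD29 and ND23 libraries were alike. Among 22 genes of recruited and lipid-associated macrophages 10 were higher without overlap (45.5%, beside 20.4%) and 0 lower (median 0.57). Lyz2, lysozyme of myeloid cells, stood at 48.9 CPM in HFD29 against 39.8 and 34.2 CPM in HFD25, and 63.6 and 71.6 CPM in ND27 against 38.4 CPM in ND23 (0.61 ± 0.15, adjusted p = 0.116), and Fabp5, a fatty acid carrier, at 25.7 CPM in HFD29 against 21.04 and 54.6 CPM in HFD25, and 66.0 and 72.2 CPM in ND27 against 110.0 CPM in ND23 (-0.61 ± 0.36, adjusted p = 0.402). The stellate and fibrosis list had 6 higher and 1 lower without overlap of 21, where 28.6% higher is near the 20.4% of all tested genes (median 0.27). Its most abundant members were Dcn, decorin (0.12 ± 0.13), and Ecm1 (-0.29 ± 0.13). The hepatocyte secreted list had a median of -0.0043, with 2 higher and 5 lower of 20 (25% lower, beside 20.6% of all tested genes), Alb at 0.19 ± 0.27 and Apoe at -0.16 ± 0.19.

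**Figure D3:**
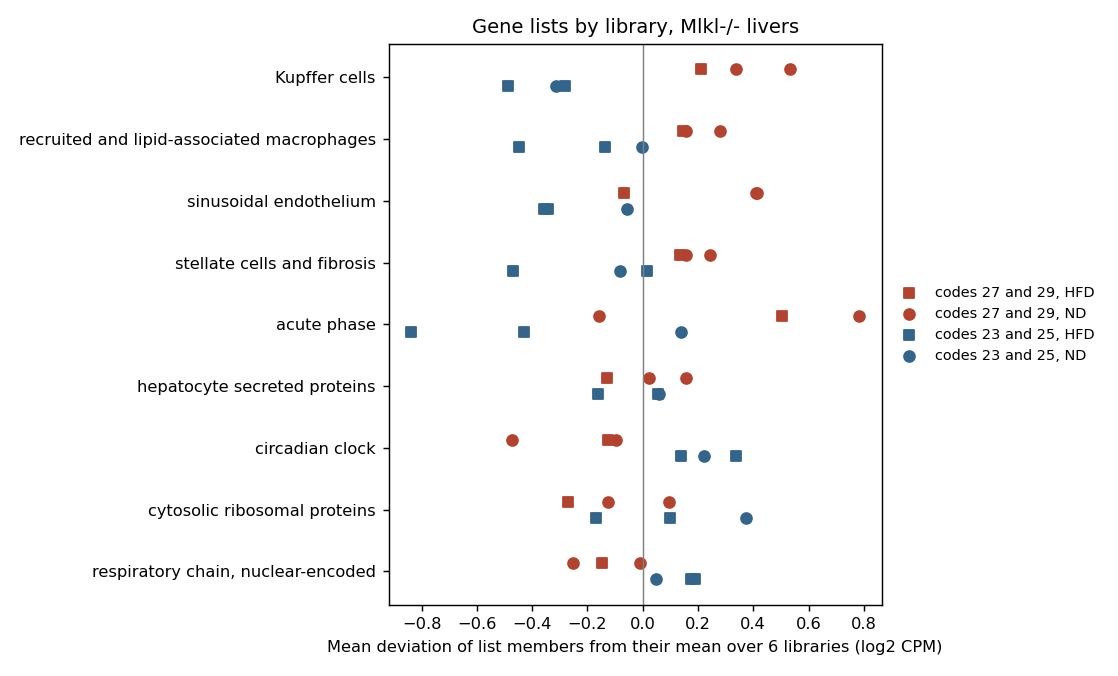
Mean log2 CPM deviation of the members of 9 gene lists from their mean over the 6 Mlkl-/- libraries, 1 point per library, with codes 27 and 29 (red) drawn above codes 23 and 25 (blue), squares for HFD and circles for ND. In the Kupffer list the red libraries lie at 0.21 to 0.53 and the blue ones at -0.49 to -0.28, whereas hepatocyte secreted proteins mix.

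The acute phase list, plasma proteins that hepatocytes make in inflammation, had 0 called of 22, 6 higher without overlap (27.3%, beside 20.4% of all tested genes) and 0 lower, and a median of 0.66, 1.02 on HFD and 0.33 on ND. Fga, the fibrinogen alpha chain, stood at 7979.6 (HFD29), 9610.3 and 12151 CPM (ND27) at the higher codes, against 3665 and 3399.8 (HFD25) and 6366 CPM (ND23) at the lower codes (0.98 ± 0.20, adjusted p = 0.0943). The beta chain Fgb stood at 6349 CPM in HFD29 against 4193 and 3712 CPM in HFD25, and 8246 and 10537 CPM in ND27 against 5259 CPM in ND23 (0.76 ± 0.20, adjusted p = 0.123). Both chains had their code levels apart within each diet, and neither passed. Per animal the list's mean deviation was 0.50 in the HFD29 library and -0.16 and 0.78 in the ND27 libraries, against -0.43 and -0.84 in the HFD25 libraries and 0.14 in the ND23 library, so that 1 ND27 animal lay below the ND23 animal. Lcn2, lipocalin 2, on the neutrophil list and also a hepatocyte acute phase product, ranged over 122 (HFD29), 11.8 and 149 CPM (ND27) at the higher codes, against 18.2 and 3.75 (HFD25) and 71.1 CPM (ND23) at the lower codes (1.79 ± 1.59, adjusted p = 0.592). S100a9, the neutrophil alarmin, had 0.79 ± 0.40, and 4 of 14 neutrophil genes passed the filter on low counts. Interferon-stimulated genes had 13 higher and 3 lower without overlap of 37 (35.1% and 8.11%, beside 20.4% and 20.6% of all tested genes; median 0.21), with the GTPase Iigp1 at 0.17 ± 0.15 and the tethering factor Bst2 at -0.43 ± 0.13. Antigen presentation had 2 higher (10%) and 7 lower (35%) of 20 (median -0.07), and its most abundant members, of MHC class I, were B2m at -0.41 ± 0.17 and H2-K1 at -0.41 ± 0.16. Class II members, chosen after their values were seen, stood on the other side, with H2-Aa at 1.07 ± 0.45, Cd74 at 0.88 ± 0.39, H2-Eb1 at 0.78 ± 0.41, H2-DMb1 at 1.07 ± 0.43 and their activator Ciita at 1.36 ± 0.51, none of which passed.

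Clock genes lay on the lower side, with 0 called of 22. Without overlap within either diet, 9 were lower (40.9% of the list, against 20.6% of all tested genes) and 1 higher, with a median of -0.46. The 2 most abundant were Tef, a clock output factor (-0.67 ± 0.32, adjusted p = 0.302), at 128 CPM in HFD29 against 141 and 197 CPM in HFD25, and 108 and 51.7 CPM in ND27 against 154 CPM in ND23, and Nr1d2, a REV-ERB repressor (-0.07 ± 0.16). Those that follow were chosen after their values were seen. Per2, a repressor arm of the clock, stood at 8.70 CPM in HFD29 against 13.1 and 21.9 CPM in HFD25, and 9.66 and 7.10 CPM in ND27 against 17.6 CPM in ND23 (-1.04 ± 0.22, adjusted p = 0.0953), and Usp2, a rhythmic protease, at 5.93 CPM in HFD29 against 21.04 and 38.6 CPM in HFD25, and 6.29 and 1.26 CPM in ND27 against 45.3 CPM in ND23 (-2.97 ± 0.75, adjusted p = 0.178). Clock stood on the other side, at 48.2 CPM in HFD29 against 36.4 and 25.4 CPM in HFD25, and 62.1 and 74.2 CPM in ND27 against 29.7 CPM in ND23 (0.92 ± 0.20, adjusted p = 0.103). Ciart, a repressor driven by CLOCK and BMAL1, had the widest range, with 1.28 CPM in the HFD29 library and 1.77 and 0.710 CPM in the ND27 libraries, against 2.81 and 12.6 CPM in the HFD25 libraries and 14.03 CPM in the ND23 library (-3.08 ± 0.74, adjusted p = 0.151), and HFD25 animal 910 lay nearer the higher-code livers than to HFD25 animal 915. No source used here gives the hour at which the livers were taken.

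The promoter of Ciart is shown as the window of 250 bases before and 50 after the start of the gene (RefSeq, GRCm38.p6, chr3:95882179-95882478, minus strand), with the E-box CACGTG, the site bound by CLOCK and BMAL1, in capitals. It holds the motif 3 times.
Ciart: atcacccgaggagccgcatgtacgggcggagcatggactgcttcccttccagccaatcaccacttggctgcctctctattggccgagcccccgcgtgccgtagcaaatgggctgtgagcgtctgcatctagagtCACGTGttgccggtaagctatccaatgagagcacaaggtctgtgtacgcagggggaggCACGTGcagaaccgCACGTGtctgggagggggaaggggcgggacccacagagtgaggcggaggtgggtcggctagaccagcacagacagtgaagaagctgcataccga
CACGTG reads the same on both strands and stood in 7.15% of 32851 promoter windows. Of the 22 clock genes 19 had a window, and 6 of these held it in any of their windows, Ciart, Per1, Tef, Cry1, Bhlhe41 and Tspan4. The 7.15% is a share of windows and the 6 a count of genes, so they cannot be compared directly. A match in the window is a description of these letters only.

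**Figure D4:**
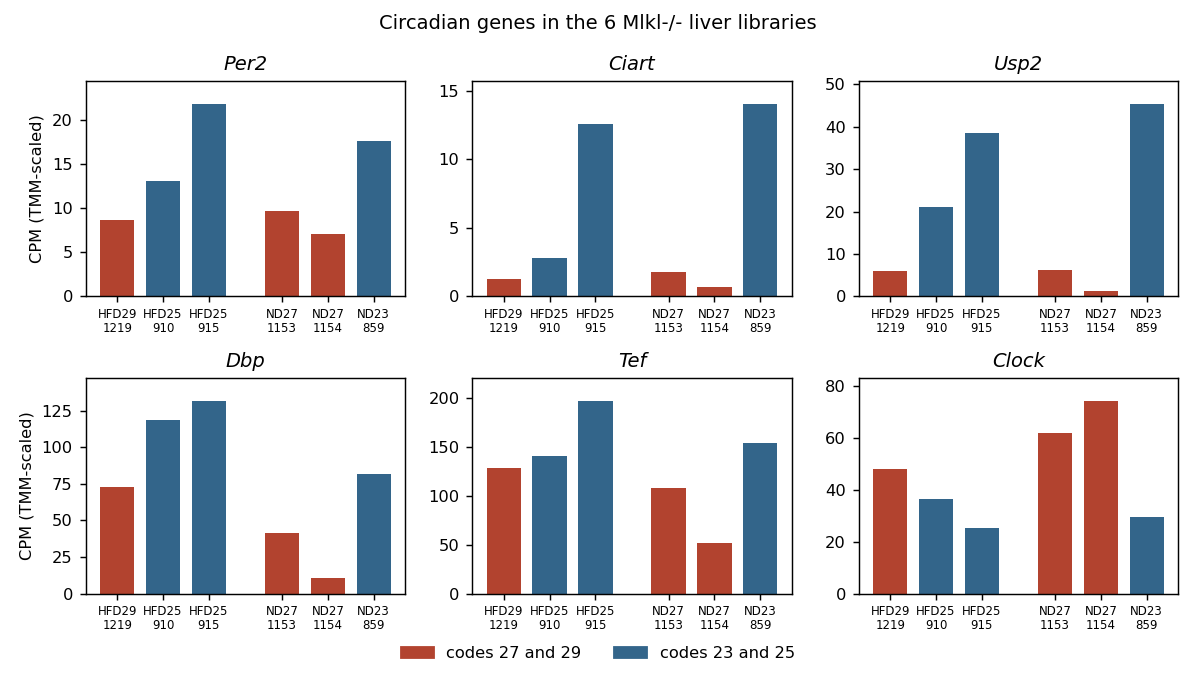
TMM-scaled CPM of 6 circadian genes in each Mlkl-/- library, drawn with the HFD libraries left of the ND libraries and codes 27 and 29 (red) left of codes 23 and 25 (blue) within a diet. Per2 stands at 7.10 to 9.66 CPM in red and 13.1 to 21.9 CPM in blue, Clock lies the other way round, and none of the 6 passed the test.

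Lists of housekeeping genes lay lower at the higher codes. Of 33 cytosolic ribosomal protein genes 0 were called, 24 were lower without overlap (72.7%, beside 20.6% of all tested genes) and 0 higher, and all 33 had a negative log2 difference (median -0.28). Rplp0 had -0.13 ± 0.17 and Rpl4 -0.28 ± 0.15. Of 30 nuclear-encoded respiratory chain genes 19 were lower (63.3%) and 1 higher (median -0.30), with the ATP synthase subunits Atp5b at 0.03 ± 0.16 and Atp5a1 at -0.12 ± 0.16. Heat shock genes had 7 lower (38.9%) and 0 higher of 18 (median -0.26), with Hsp90ab1 at -0.26 ± 0.18 and Hspa8 at -0.40 ± 0.37.

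Transcript length and base composition moved with the code over the whole transcriptome. Across 10839 genes the log2 code difference had a Spearman correlation of 0.485 with the length of the longest annotated transcript and of -0.391 with the GC content of its last 500 bases, against 0.0773 and 0.0705 for the diet difference in the same livers. For the wild-type code difference they were 0.150 and -0.371. The correlation with GC content was -0.443 on ND and -0.174 on HFD in Mlkl-/- livers, and -0.482 and 0.0041 in wild-type livers. That with length was 0.430 on ND and 0.384 on HFD in Mlkl-/- livers, and 0.168 and 0.0439 in wild-type livers. The genes share libraries, so these are descriptions. The median length was 5672.5 bases for the 20 genes that rose and 1538.5 for the 4 that fell, against 2726 for all tested genes. Their median GC contents were 43.1% and 51.6%, against 45% for all. After each library's trend on GC content and length was taken out, a step added after seeing the data, 9 genes were called, all of them higher. Apol7d, Adgre1, Hipk2, Scd2, Scd3 and Scd4 kept their call, and F8, Lnpep and Cebpb were not called. The Kupffer median was then 0.86, the endothelial 0.28, the clock -0.60 and the ribosomal -0.20. The part of this trend in the other values was not tested.

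Metabolic lists had 0 called members each. Many list medians rest on single livers, and 15 of the 40 change sign in a fit without 1 library. Without ND23 animal 859 the code is read from the HFD livers only, and without HFD29 animal 1219 from the ND livers only. Sign changes in those fits can therefore repeat a difference between the diets. Xenobiotic metabolism had 9 lower and 3 higher without overlap of 28 (32.1% and 10.7%, beside 20.6% and 20.4% of all tested genes; median -0.29), with Cyp2e1 at -0.34 ± 0.18 and Cyp3a11 at -0.27 ± 0.40. Pericentral hepatocyte genes had a median of -0.09 (Oat, ornithine aminotransferase, 0.30 ± 0.28) and periportal ones of 0.10 (Cps1, the first enzyme of the urea cycle, 0.19 ± 0.32). Fatty acid synthesis had 4 lower (20%, about the share of all genes) and 1 higher of 20 (median -0.21), with Scd1 as described above and without Scd2, Scd3 and Scd4, which are not on the list, and the elongase Elovl5 stood at 0.19 ± 0.33. Fatty acid oxidation and ketogenesis had a median of 0.0079. Lipid droplet and uptake genes had -0.15 (Fabp1, -0.35 ± 0.28, and Slc27a2, -0.24 ± 0.20). Cholesterol synthesis had a median of -0.10 that stood at 0.27 on HFD and -0.53 on ND (Sc5d, 0.11 ± 0.17). Bile acid genes had -0.09, with the uptake carrier Slco1b2 at -0.06 ± 0.16 and Slc27a5 at -0.09 ± 0.16.

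Hormone- and feeding-linked lists also had 0 called. Male-biased genes had a median of -0.49 over 22 (Mup20, -0.24 ± 0.29, and Serpina1e, 0.0052 ± 0.62) and female-biased genes of -0.32 over the 14 of 18 that passed the filter (Cyp2a5, -0.96 ± 0.37, and Cyp3a41b, -0.20 ± 0.52). Growth hormone signalling had 0.26, with Igf1 at 0.27 ± 0.16 and the receptor Ghr at -0.36 ± 0.18. Fasting and feeding genes had -0.25, and Pck1, the gluconeogenic enzyme, ranged over 1375 CPM in HFD29 against 1314 and 3269 CPM in HFD25, and 2077 and 2490.2 CPM in ND27 against 2436 CPM in ND23 (-0.41 ± 0.37). The glucocorticoid and metallothionein list had -0.07 (Tat, -0.39 ± 0.38, and the zinc carrier Slc39a14, 0.40 ± 0.20). Immediate early genes had 0.04 (Jund, -0.17 ± 0.17, and Zfp36, -0.13 ± 0.37).

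Stress and death lists had 0 called each. Stress of the endoplasmic reticulum and ATF4 targets had 9 higher (34.6%, beside 20.4% of all tested genes) and 2 lower of 26 (median 0.22), with the chaperones Hsp90b1 at 0.46 ± 0.19 and Calr at 0.06 ± 0.17. The NRF2 list had a median of -0.09 (Cat, catalase, -0.21 ± 0.18, and Gpx1, -0.26 ± 0.19), and p53 targets of 0.12 (Ccng1, 0.19 ± 0.16, and Mdm2, 0.45 ± 0.14). Necroptosis and cell death genes had 7 higher (25%, near that share) and 3 lower of 28 (median 0.15), with the caspase inhibitor Xiap at 0.14 ± 0.16 and the survival factor Mcl1 at 0.26 ± 0.15. The cell cycle list had 5 lower (25%, near the 20.6% of all genes) and 0 higher of 20 (median -0.33), with Ccnd1 at 0.39 ± 0.36 and Pcna at -0.17 ± 0.19.

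Lists of other cells and tissues had 0 called and wide ranges. B and plasma cell genes had a median of 0.0041 over 14, but the IgM heavy chain Ighm ranged over 81.4 CPM in HFD29 against 7.97 and 124 CPM in HFD25, and 5.45 and 14.96 CPM in ND27 against 12.96 CPM in ND23, and the light chain Igkc over 30.8 CPM in HFD29 against 4.29 and 58.0 CPM in HFD25, and 4.87 and 8.76 CPM in ND27 against 6.82 CPM in ND23. Both were high in HFD29 animal 1219 and HFD25 animal 915, 1 animal of each code level. T and NK cell genes had -0.0022 over 10 of 20 (Cd247, 0.79 ± 0.32, and Themis, 0.97 ± 0.85). Cholangiocyte genes had 0.25 over 8 of 12, and Spp1, osteopontin, stood at 25.8 CPM in HFD29 against 18.7 and 22.6 CPM in HFD25, and 33.5 and 30.9 CPM in ND27 against 95.6 CPM in ND23. Red blood cell genes had -0.54 over 6 of 7 (Hbb-bs, -0.34 ± 0.52, and Hba-a1, -0.69 ± 0.56), adipose genes -0.28 over 6 of 9 (Car3, -0.32 ± 0.29, and Fabp4, -0.36 ± 0.43) and pancreas genes -0.38 over 2 of 10 (Cela1, -0.39 ± 0.23, and Cela2a, -0.37 ± 0.34). Of the sex-linked genes and Nnt, which is partly deleted in C57BL/6J mice, 0 were called, with Ddx3y at 0.56 ± 0.18, Eif2s3y at 0.13 ± 0.17, Kdm5d at 0.51 ± 0.26, Uty at 0.65 ± 0.20 and Nnt at 0.05 ± 0.16.

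The diet response of the Mlkl-/- livers was read in the same fit. With the code as a term 20 of 17676 genes were called for HFD against ND (0.113%), 11 higher (0.0622%) and 9 lower (0.0509%), and without it 8 of 17052 (0.0469%), 5 higher (0.0293%) and 3 lower (0.0176%), of which 7 were among the 20. Pltp, the phospholipid transfer protein of plasma, stood at 123, 83.1 and 73.2 CPM on HFD, against 18.3, 13.7 and 17.6 CPM on ND, and rose by 2.57 ± 0.21 (HFD minus ND; edgeR adjusted p = 0.00670). Osbpl3, a lipid transfer protein, stood at 14.9, 14.5 and 19.4 CPM on HFD, against 2.61, 1.78 and 3.68 CPM on ND, and rose by 2.50 ± 0.23 (adjusted p = 0.00832). Neither gene overlapped between the diets, and the naming rule takes only genes without such overlap within each code level. Derl3, of endoplasmic reticulum protein disposal, the proteoglycan Gpc1 and the fatty acid carrier Fabp2 rose by 3.05 ± 0.24, 2.18 ± 0.23 and 1.76 ± 0.21. Among the genes that fell, Hdc, histidine decarboxylase, stood at 3.87, 2.72 and 3.46 CPM on HFD, against 10.4, 10.7 and 10.5 CPM on ND (-1.58 ± 0.19, adjusted p = 0.0255). Cyp3a59 (-1.45), Cyp2d12 (-0.97), Nat8 (-1.06) and the pseudogene Gtpbp4-ps1 (-2.67) fell as well, and Zfp970, at -0.95, did not pass (adjusted p = 0.0507). The Cyp3a and Cyp2d genes have close copies that may share reads. Both code and diet called 4 genes, Scd2, Scd3, Scd4 and Gm12431. The diet calls rested on single animals as well, with 0 without ND27 animal 1154 (1562 at an unadjusted p under 0.05), 6 without HFD29 animal 1219, 7 without ND27 animal 1153, 10 without ND23 animal 859 and 210 without HFD25 animal 915.

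The same split in the wild-type livers tested whether animals of these codes differ there too. By edgeR 0 of 18079 genes were called (0% higher and 0% lower), with 1197 at an unadjusted p under 0.05 (6.62%), a smallest adjusted p of 0.124, and 32 calls by DESeq2 and 0 by limma-voom. It became 9 without ND27 animal 1142 and 8 without HFD25 animal 904. The genes that came first by the naming rule did not pass. They included the transferrin receptor Tfrc (1.10 ± 0.18, adjusted p = 0.409), the basement membrane collagen Col15a1 (1.21 ± 0.21), Bet1 (0.66 ± 0.12), Tram1 (0.63 ± 0.12), Ppfia2 (0.81 ± 0.16) and Mob1b (0.62 ± 0.12) on the higher side. On the lower side were the stabilins Stab2 (-0.84 ± 0.13) and Stab1 (-0.59 ± 0.12), Arl4d (-1.31 ± 0.24), Hamp2 (-0.75 ± 0.16), Nlrp12 (-0.63 ± 0.13) and Shank3 (-0.88 ± 0.20). No overlap within either diet was seen for 24.1% of wild-type genes (12.1% higher and 12% lower), and for 41% of genes in the Mlkl-/- livers. In wild-type livers the 8-locus level stood at 6054 and 6584 raw CPM on HFD and 378 raw CPM on ND at the higher codes, against 534 raw CPM on HFD and 452 and 473 raw CPM on ND at the lower codes. The level and the code therefore coincide on HFD in wild-type livers and on ND in Mlkl-/- livers, in opposite directions. With the level as a term, which leaves the ND livers to give the wild-type code contrast, edgeR called 3 genes.

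The difference of the code effect between the genotypes was tested over all 12 libraries. Of 18610 genes 40 were called (0.215%), 37 with a higher signed difference in Mlkl-/- than in wild-type livers (0.199%) and 3 with a lower one (0.0161%), and 13 of the 40 were among the 24 called in Mlkl-/- livers. Adgre1 had 1.78 ± 0.18 in Mlkl-/- and -0.29 ± 0.20 in wild-type livers, a difference of 2.05 ± 0.28 (edgeR adjusted p = 0.0119). Its wild-type levels were 21.5 and 14.4 CPM on HFD and 7.69 CPM on ND at the higher codes, against 19.7 CPM on HFD and 11.7 and 9.17 CPM on ND at the lower codes. The code levels overlapped within HFD there, and all 6 values lay above those of the lower-code Mlkl-/- livers. Apol7d had -0.79 ± 0.24 in wild-type livers, with 36.8 and 32.1 CPM on HFD and 14.4 CPM on ND at the higher codes, against 41.5 CPM on HFD and 39.9 and 31.7 CPM on ND at the lower codes, and a difference of 3.22 ± 0.38 (adjusted p = 0.0121). F8 had 20.01 and 16.0 CPM on HFD and 8.21 CPM on ND at the higher codes, against 27 CPM on HFD and 12.9 and 12.4 CPM on ND at the lower codes, a wild-type value of -0.61 ± 0.15 and a difference of 2.24 ± 0.26 (adjusted p = 0.00987). Siglec1, the macrophage sialoadhesin, had 1.99 ± 0.35, Hipk2 1.87 ± 0.26 and Klf12 1.76 ± 0.28 (adjusted p = 0.0443, 0.0140 and 0.0322). The 3 genes with a lower signed difference were Igip, Gm43444 and Gm13339, of which the last 2 carry predicted names and fall outside the naming rule. Igip, a secreted inducer of IgA, stood at -2.30 ± 0.38 (adjusted p = 0.0433), with 7.79 CPM in HFD29 against 12.6 and 10.1 CPM in HFD25, and 5.58 and 5.88 CPM in ND27 against 17.7 CPM in ND23 in Mlkl-/- livers. Cacna1d (-1.12 ± 0.23), B3gat2 (-1.09 ± 0.23), Ttc7b (-1.02 ± 0.22) and Mapk15 (-1.26 ± 0.27) did not pass. Adding the 8-locus level as a term to this fit, a choice made after seeing the data, left 0 genes called by edgeR (1688 at an unadjusted p under 0.05, smallest adjusted p = 0.293). The differences were then 2.03 for Adgre1, 3.29 for Apol7d, 1.86 for F8, 2.27 for Siglec1, 2.01 for Hipk2, 1.70 for Klf12 and -1.81 for Igip, with adjusted p of 0.293 to 0.375.

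Among the lists, 5 of 16 Kupffer cell genes and 5 of 18 endothelial genes were called for the difference between genotypes, against 0.215% of all tested genes. They were Adgre1, Cd5l, Clec4f, Csf1r and C1qb, and Stab1, Stab2, Ptprb, Cdh5 and Kdr, chosen after their values were seen, and in all 10 the signed code difference was higher in Mlkl-/- than in wild-type livers. With the 8-locus level as a term none of them was called. The wild-type medians were -0.40 for Kupffer and -0.50 for endothelial genes. The Kupffer list summed to 559 and 508 CPM on HFD and 414 CPM on ND in the higher-code wild-type livers, against 681 CPM on HFD and 492 and 461 CPM on ND in the lower-code ones. Stab2 had 0.57 ± 0.14 in Mlkl-/- and -0.84 ± 0.13 in wild-type livers, a difference of 1.41 ± 0.18 (edgeR adjusted p = 0.00987). The count of 40 was 0 without Mlkl-/- ND23 animal 859 (1382 genes at an unadjusted p under 0.05 by edgeR), 12 without HFD25 animal 910, 13 and 8 without ND27 animals 1153 and 1154, 110 without HFD25 animal 915 and 125 without HFD29 animal 1219. Among wild-type livers it was 2 without HFD25 animal 904, 4 without ND27 animal 1142, 8 and 14 without ND23 animals 875 and 876, 7 without HFD29 animal 1231 and 56 without HFD29 animal 1229.

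**Figure D5:**
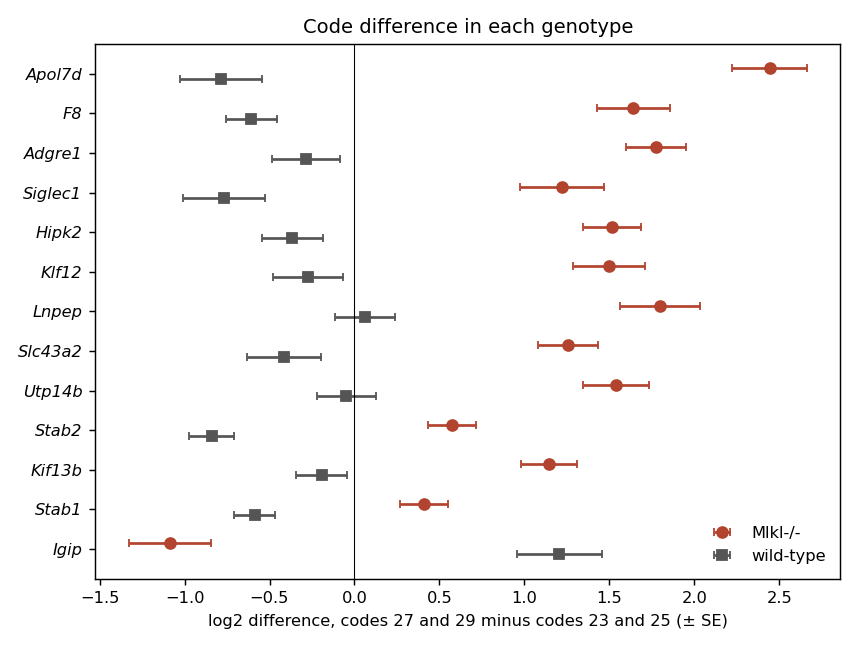
Log2 code difference (codes 27 and 29 minus codes 23 and 25) with its standard error in Mlkl-/- livers (red circles) and in wild-type livers (grey squares), 6 libraries each, for 13 named genes called for the difference between genotypes. In 12 of the 13 the Mlkl-/- value lies to the right of the wild-type value, and Igip lies the other way round.

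Whether the code difference of Mlkl-/- livers differs between HFD and ND was tested with 2 residual degrees of freedom. By edgeR 0 of 18695 genes were called (0%), with 1416 at an unadjusted p under 0.05, a smallest adjusted p of 0.155, and 62 calls by DESeq2 and 0 by limma-voom. The count was 453 without HFD25 animal 910 and 190 without HFD25 animal 915. The first genes by the naming rule did not pass. Mir6236 (4.54 ± 0.44, HFD difference minus ND difference, adjusted p = 0.155) and Lars2 (3.94 ± 0.50) led the higher side, with the serpin Serpina12 (2.56 ± 0.30), Spp1 (1.898 ± 0.25), the sterol enzyme Sqle (1.56 ± 0.24) and Col15a1 (2.36 ± 0.37). Hamp, the iron hormone hepcidin, stood at 300.4 CPM in HFD29 against 373 and 436 CPM in HFD25, and 273 and 293 CPM in ND27 against 86.8 CPM in ND23 (-2.13 ± 0.31, adjusted p = 0.239), and its copy Hamp2 at -2.17 ± 0.26. Colec10 (-1.68 ± 0.28), Atoh8 (-1.84 ± 0.31), Tra2b (-1.39 ± 0.25) and Abca8b (-1.42 ± 0.26) completed the lower side. In these genes the ND23 library stood apart from the ND27 libraries, and each comparison within a diet has 1 library on 1 side.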

How the data were processed

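Per the labels' protocols, liver RNA was made into QuantSeq 3' libraries. Per the submitters' processing notes, cutadapt 1.9, HISAT2, featureCounts and limma were used with mm10, and no source used here gives the annotation, the strand setting or the other versions. The authors deposited raw counts, whole numbers for 51912 Ensembl identifiers and 12 libraries, which were used as they are. Symbols and positions come from GENCODE M21. Of 734 symbols in 40 gene lists, 1 matched no identifier.

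Genes were filtered with filterByExpr (minimum 10 counts, 15 in total), scaled with TMM and tested with edgeR 4.0.16 in R 4.3.3 (robust quasi-likelihood, log2 differences with standard errors). The standard errors were derived from the test, as the size of the log2 difference over the square root of its F statistic. They are not an output of the fit. The fit of the 6 Mlkl-/- libraries had diet and code as terms and 3 residual degrees of freedom. The wild-type fit was the same, and the fit over 12 libraries had 6. Calls were made at a Benjamini-Hochberg adjusted p under 0.05, with all tested genes in the adjustment. CPM values are TMM-scaled over the 12 libraries unless raw CPM is named. The edgeR fit was tested on simulated counts for the code in each genotype, code by genotype and code by diet, and the other steps were not. At 19435391 counts or more per library, counting error taken over all genes is small beside the spread between animals. This need not hold for genes with few counts, such as Serpina3b and Mlkl. Intervals from counts would cover sampling only.

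Named genes are Mlkl, the largest called differences among genes that average 5 CPM or more without overlap within a diet (12 a direction for the code, 6 for other comparisons, filled with genes that did not pass), up to 4 called or else the 2 most abundant members of each list, the sex genes and Nnt. Some genes that the rule names are not reported here. The members, the lists and the tests were chosen with earlier results of these data known. Alternatives were RLE scaling, library size only, 2 other filters, DESeq2 1.42.0, limma-voom 3.58.1, non-robust dispersions, other terms and leaving out each library. A correction for GC content and length and the 8-locus level in other fits were added after seeing the data.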

Additional observations from a re-analysis of the deposited data

Results flagged for a closer look

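Genes that the naming rule picked for a comparison were read here in edgeR's test of the difference between genotypes over 12 libraries. In 12 of the called ones the signed code difference was higher in Mlkl-/- than in wild-type livers, and in 1 it was lower. Other list members and genes with predicted names called by this test, given above, are not counted. For Stab1 and Stab2 the difference was of opposite sign in the genotypes and larger in size in wild-type livers, at 0.41 in Mlkl-/- and -0.59 in wild-type livers for Stab1 and 0.57 and -0.84 for Stab2. The log2 differences of the 2 code effects, Mlkl-/- minus wild-type, were 3.22 for Apol7d, 2.24 for F8, 2.05 for Adgre1, 1.99 for Siglec1, 1.87 for Hipk2 and 1.76 for Klf12, with adjusted p of 0.00987 to 0.0443. They were 1.72 for Lnpep, 1.67 for Slc43a2, 1.58 for Utp14b, 1.41 for Stab2, 1.33 for Kif13b and 0.99 for Stab1, with adjusted p of 0.00987 to 0.0463. The value for Igip was -2.30 (adjusted p = 0.0433), from -1.09 in Mlkl-/- and 1.21 in wild-type livers. Without Mlkl-/- ND23 animal 859, 0 genes were called for this difference by edgeR, with 1382 at an unadjusted p under 0.05. With the level of the 8 loci that include Mir6236 and Lars2 as a term it was also 0, with 1688. In wild-type livers the code levels also fall differently on the diets, with 2 higher-code livers on HFD and 1 on ND. Groups of 3 are too small for a test of single outlying libraries.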

How the results depend on the processing

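No named value turned direction where it was called, and the counts of calls moved with the processing. For the code in Mlkl-/- livers 24 genes became 1486 with no filter beyond 1 count, 627 with DESeq2, 5 with non-robust dispersions, 9 with the GC and length correction, 260 in a fit on all 12 libraries, 2 with the 8-locus level as a term or in the HFD contrast only, 63 in the ND contrast only, and 0 to 111 without 1 library. Higher calls were 83.3% of the 24, 60.3% with DESeq2 and 53.8% with no filter. The 20 diet calls became 32 with library size only, 948 with no filter, 303 with DESeq2, 68 on all 12 libraries, 8 with no code term and 0 to 210 without 1 library. With library size only the share of higher diet calls was 68.8%, against 55% with TMM, and the median of all genes stood at 0.10 for diet and 0.057 for the code. The 0 wild-type code calls became 175 with no filter, 32 with DESeq2, 3 with the 8-locus level as a term and 0 to 9 without 1 library. The 40 calls between genotypes became 828, 271, 21 with limma-voom, 13 with non-robust dispersions, 24 with the GC and length correction, 0 with the 8-locus level as a term and 0 to 125 without 1 library. The 0 code-by-diet calls became 318, 62 and 0 to 453, and ND23 animal 859 and HFD29 animal 1219 could not be left out of that test. The cause of these moves was not tested. Of the 40 list medians, 14 moved by more than the spread between libraries without ND23 animal 859, 11 without HFD29 animal 1219, 5 and 2 without HFD25 animals 915 and 910, 1 and 0 without ND27 animals 1154 and 1153. The 8-locus level as a term moved 13. Of the 40, 15 changed sign in a fit without 1 library. The fits without ND23 animal 859 and without HFD29 animal 1219 read the code from HFD or ND livers only, so they repeat the contrasts within a diet. The Kupffer median was 0.70 to 0.81 without 1 library, the endothelial 0.34 to 0.50, the clock -0.51 to -0.28 and the acute phase 0.33 to 1.02, and the correlation of the ND and HFD differences was 0.390 over genes of at least 1 CPM and 0.292 after the GC and length correction. No paired analysis was possible because replicate numbers were given in accession order and pair no animals.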
